A study of Mus musculus with 12 samples.

Results

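The genes described here are 7 transcription factors that build and pattern the skull, chosen by name: Runx2, Sp7, Dlx5, Msx1, Msx2, Twist1 and Sox9. Counts were at hand for 6 of them, among 22317 gene symbols in all, and Dlx5 was not analysed here. They were measured by RNA-seq of poly(A) RNA in 12 libraries from wild-type male BALB/c mice, 8 weeks old at modeling, in which photothrombosis (PT, a dye in the blood lit by a laser to close small vessels) had injured either the skull or the brain. Each of the 4 groups holds 3 libraries, which the study describes as biological replicates. SB2 and SB4 are labelled as brain cortex on day 2 and day 4 after skull injury. BS2 and BS6 are labelled as interparietal bone, a plate at the back of the skull roof, on day 2 and day 6 after brain injury. All 4 groups therefore come from injured animals, and uninjured tissue and the injured tissues themselves were not analysed here.

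Most of the skull roof forms by intramembranous ossification, in which mesenchymal cells turn directly into osteoblasts. RUNX2 starts that program and SP7 (osterix) acts after it, and bone does not form where either is missing. MSX1, MSX2 and DLX5 are homeodomain proteins that govern how many progenitors the skull has and when they mature. TWIST1, a basic helix-loop-helix protein, holds RUNX2 in check in the sutures, the seams where skull bones grow. SOX9 directs cartilage and is also a nuclear protein of astrocytes, so it is a member that the cortex is known to express.

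The labels were first read against markers of the tissues, given as CPM, read counts scaled to the size of each library with factors over the 12 libraries. The 4 osteoblast and osteocyte markers with counts summed to 2806 to 4704 CPM in the libraries labelled SB2 and to 928 to 2120 CPM in BS6, against 5.16 to 7.74 CPM in SB4 and 6.43 to 9.48 CPM in the libraries labelled BS2. The 7 neuron markers with counts ran the other way, with 11120 to 12060 CPM in SB4, 10850 to 11230 CPM in BS2, 62.4 to 105 CPM in SB2 and 70.0 to 124 CPM in BS6. The libraries labelled SB2 (cortex) thus held bone transcripts, and those labelled BS2 (bone) held brain transcripts. SB2 and BS2 below stand for the libraries so labelled, and every direction drawn from SB2 or BS2 rests on labels that the markers go against. Within BS6, replicate 2 stood apart, with neutrophil markers at 24340 CPM against 1408 and 3313 CPM, and with meningeal and fibroblast markers at 3990 CPM against 27110 and 17830 CPM. Total counts were 14126082 to 18972654 per library. In bulk tissue, fewer cells of a type and less RNA per cell cannot be told apart.

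The members lie on 6 different chromosomes of the mm10 genome. Runx2 spans chr17:44495987-44814797 and Sp7 chr15:102356606-102367182, both on the minus strand. Msx1 lies at chr5:37820485-37824583 and Msx2 at chr13:53466884-53473074, also on the minus strand. Twist1, at chr12:33957671-33959829, and Sox9, at chr11:112782224-112787760, are on the plus strand. All 6 are protein-coding in GENCODE M21. Among their exons, only those of Runx2 overlap another gene, the antisense Runx2os1, whose 33 counts over the SB2 libraries compare with 12655 for Runx2 itself.

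As a description, promoters of the members were searched for the short letters that RUNX, basic helix-loop-helix, homeodomain, SOX and SP proteins are known to read. RefSeq windows (GRCm38.p6, 250 bases before to 50 after the start) matched 4 of the members, Runx2, Msx1, Msx2 and Twist1. The searched motifs, on both strands, were ACCACA (RUNX core), CANNTG (E-box), TAATTA (homeodomain core), ACAAAG and ACAATG (SOX) and GGGCGG (Sp box). Of 32851 promoters of the same length, 16.8% held ACCACA, 72.3% CANNTG, 5.29% TAATTA, 18.7% ACAAAG, 12.6% ACAATG and 35.7% GGGCGG. The Msx1 window (shown at chr5:37824586-37824835, minus strand) and the Twist1 window (shown at chr12:33957421-33957670, plus strand) are printed up to the start, 5′ to 3′, because they lie outside annotated exons of these genes. Capitals mark the matches, an E-box CACCTG and an Sp box read as CCGCCC in Msx1 and an Sp box read as CCGCCC in Twist1.

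Msx1: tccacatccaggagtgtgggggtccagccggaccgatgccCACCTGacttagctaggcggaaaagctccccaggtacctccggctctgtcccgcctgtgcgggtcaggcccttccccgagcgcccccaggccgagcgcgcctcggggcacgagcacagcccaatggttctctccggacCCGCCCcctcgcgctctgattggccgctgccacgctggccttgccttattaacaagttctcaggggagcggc
Twist1: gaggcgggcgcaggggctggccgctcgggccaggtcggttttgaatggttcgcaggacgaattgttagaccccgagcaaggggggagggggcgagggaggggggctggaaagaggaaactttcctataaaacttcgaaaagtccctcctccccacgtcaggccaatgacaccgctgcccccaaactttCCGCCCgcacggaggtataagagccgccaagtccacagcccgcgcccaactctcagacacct

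For Runx2 and Msx2 only short sites are shown, since their windows lie partly or wholly within exons annotated in GENCODE. The Runx2 site is the RUNX core that begins at base -80 from the start, shown because it is a RUNX match in the promoter of a RUNX gene, and it overlaps an E-box (CACATG). The Msx2 site is the TAATTA core that begins at base -187, shown because it is a homeodomain match in the promoter of a homeodomain gene. Capitals mark the motif.

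Runx2 (chr17:44814690-44814719, minus strand): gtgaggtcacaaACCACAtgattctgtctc
Msx2 (chr13:53472950-53472979, minus strand): tgactgctcctgTAATTAactcctaattta

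In all, the Runx2 window held 3 RUNX cores and 2 E-boxes, the Msx2 window an E-box, a homeodomain core and an Sp box, and no ACAAAG or ACAATG was found in any of the 4 windows. These matches describe letters in the windows and were not tested as binding sites.

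The question of the study for these groups was how injury of one tissue changes the other over days. The study compared each group with uninjured controls, which were not analysed here. It also compared SB4 with SB2 and BS6 with BS2. In SB4 against SB2, 5 of the 6 members fell and Sox9 rose. In BS6 against BS2 the directions were reversed, and the same 5 members rose while Sox9 fell. Calls needed an adjusted p under 0.05 (quasi-likelihood test of edgeR, Benjamini-Hochberg over all genes tested) and a log2 fold change beyond 1 in either direction. The share of all genes called was 56.4% of 17293 in SB4 against SB2 and 55.5% of 17311 in BS6 against BS2, so that a call by itself sets no member apart from the background. In one direction, 28.6% of genes were called lower and 27.8% higher in SB4, and 29% were called higher and 26.5% lower in BS6. For each of the 6 members the libraries of the 2 groups did not overlap in either comparison, as was the case for 85.5% and 80.8% of all genes. Tested against each other, in a contrast of (BS6 minus BS2) minus (SB4 minus SB2) over all libraries, the changes over days differed for all 6 members, 5 with a higher and 1, Sox9, with a lower value in the BS libraries, where 73.6% of all genes differed, 37.8% higher and 35.8% lower. Sp7, Msx2 and Twist1, and Msx1 in SB4 against SB2, passed the filter of low genes only through SB2 or BS6. For these members no call in the other direction was possible. With at least 10 counts asked in every library, 2 members were called in SB4 against SB2 and 3 in BS6 against BS2. The log2 fold changes of the members ranged from -9.39 to 1.25 in SB4 against SB2 and from -1.40 to 8.90 in BS6 against BS2.

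**Figure D1:**
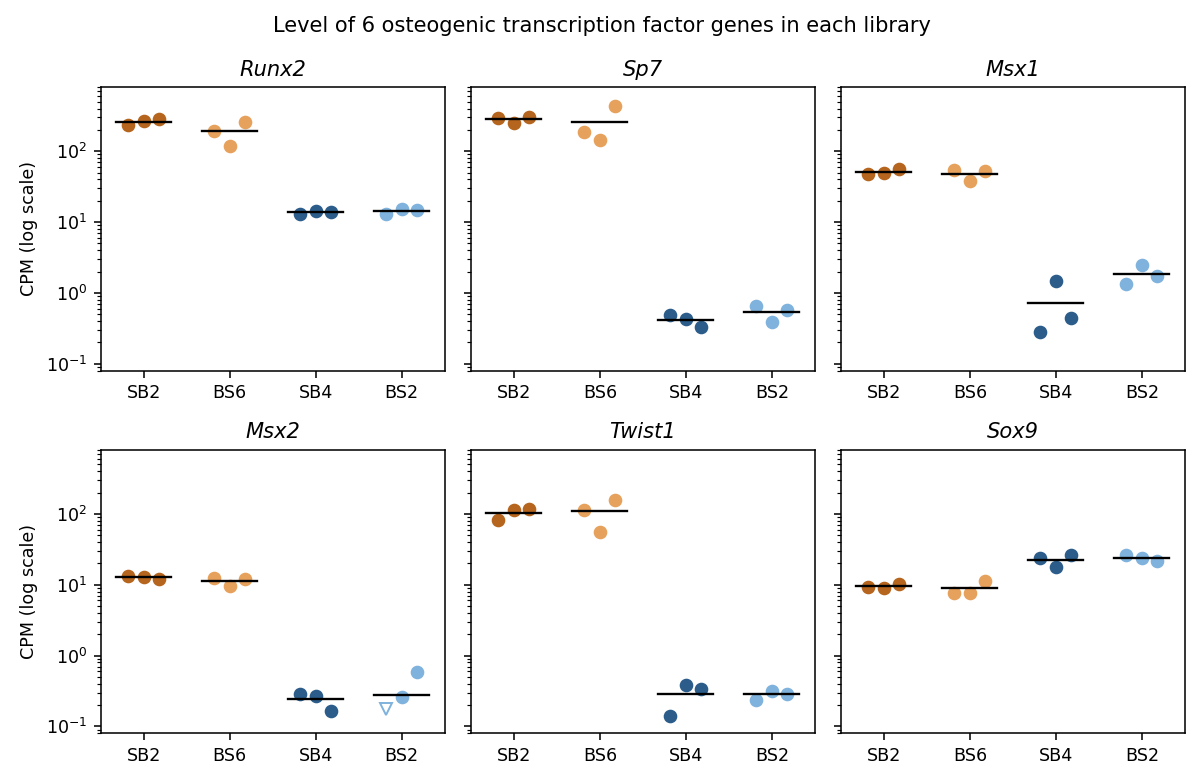
Level of each member in every library, in CPM on a log axis, by group, with replicates 1 to 3 from left to right and a black line at the group mean. Runx2, Sp7, Msx1, Msx2 and Twist1 were high in SB2 and BS6 and low in SB4 and BS2, Sox9 was the reverse, and the open triangle stands for the library with 0 Msx2 counts, drawn at the 0.177 CPM that 3 counts would give.

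Runx2, the first factor of the osteoblast lineage, was measured at 231, 263 and 284 CPM in the libraries labelled SB2 and at 194, 120 and 262 CPM in BS6. In the libraries with brain transcripts it did not vanish, with 13.2, 14.5 and 13.8 CPM in SB4 and 13.2, 15.2 and 15.04 CPM in BS2. The 6 libraries with bone transcripts (SB2 and BS6, here called bone-like) all lay above 120 CPM and the 6 with brain transcripts (SB4 and BS2, brain-like) all at or below 15.2 CPM, and replicate 2 was the lowest of BS6. The spread in the brain-like groups was small, at 13.8 ± 0.66 CPM (SD, n = 3) in SB4 and 14.5 ± 1.10 CPM (SD, n = 3) in BS2. In SB4, Runx2 fell by 4.22 on the log2 scale (SE 0.09, adjusted p = 7.07e-12, edgeR), and in BS6 it rose by 3.77 (SE 0.30, adjusted p = 6.22e-05, edgeR).

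Sp7, which acts after Runx2 and is needed for osteoblasts to mature, had the widest range of the members. It stood at 299, 252 and 305 CPM in SB2 and at 186, 144 and 437 CPM in BS6. It stood at 0.497, 0.435 and 0.334 CPM in SB4 and at 0.649, 0.384 and 0.581 CPM in BS2, from 6 to 11 counts a library. BS6 replicate 3 was the highest of all 12 libraries and BS6 replicate 2 the lowest of the bone-like libraries, so that the SD of BS6 reached 159 CPM around a mean of 256 CPM (n = 3). Sp7 fell by 9.39 in SB4 (SE 0.15, adjusted p = 1.20e-12, edgeR) and rose by 8.90 in BS6 (SE 0.63, adjusted p = 3.92e-05, edgeR), on the log2 scale. Without BS6 replicate 3 the rise was 8.28.

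Msx1, a homeodomain gene of cranial neural crest and suture mesenchyme, was even across the bone-like libraries. It was at 48.2, 48.6 and 55.4 CPM in SB2 and at 54.1, 37.6 and 51.9 CPM in BS6, again with replicate 2 lowest. In the brain-like libraries it was low but uneven, with 0.284, 1.47 and 0.446 CPM in SB4 and 1.36, 2.50 and 1.74 CPM in BS2. SB4 replicate 2 lay within the range of BS2, and the other 2 SB4 libraries below it. Msx1 fell by 6.03 in SB4 (SE 0.32, adjusted p = 5.88e-07, edgeR) and rose by 4.71 in BS6 (SE 0.27, adjusted p = 1.79e-05, edgeR). Without SB4 replicate 2 the log2 fold change in SB4 was -7.03.

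Msx2, the close relative of Msx1 that acts in the same mesenchyme, had lower levels and the smallest relative spread of the members in bone-like libraries, with a coefficient of variation of 4.42% in SB2 and 13.7% in BS6. It was at 13.3, 12.7 and 12.2 CPM in SB2 and at 12.3, 9.54 and 12.2 CPM in BS6. It was at 0.284, 0.272 and 0.167 CPM in SB4, and at 0, 0.256 and 0.581 CPM in BS2, where the count of 0 allows up to 0.177 CPM. No brain-like library held more than 8 counts, so these low values rest on few reads, and the 95% Poisson interval of the SB4 level, 0.125 to 0.421 CPM, covers counting error only. Msx2 fell by 5.69 in SB4 (SE 0.24, adjusted p = 1.23e-09, edgeR) and rose by 5.42 in BS6 (SE 0.67, adjusted p = 0.000424, edgeR). The rise was 4.77 without BS2 replicate 1 and 6.45 without BS2 replicate 3.

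Twist1, which keeps suture mesenchyme from turning into bone, was at 82.0, 115 and 115 CPM in SB2 and at 113, 55.2 and 159 CPM in BS6. It was at 0.142, 0.381 and 0.334 CPM in SB4 and at 0.236, 0.320 and 0.291 CPM in BS2, from 2 to 7 counts a library. The bone-like libraries were widely spread, with BS6 replicate 2 lowest and BS6 replicate 3 highest, and the brain-like libraries all lay below 0.4 CPM. Twist1 fell by 8.41 in SB4 (SE 0.25, adjusted p = 1.03e-09, edgeR) and rose by 8.59 in BS6 (SE 0.56, adjusted p = 2.82e-05, edgeR). Its close relative Twist2 was too low to be tested in any comparison, with group means of 0.0911 to 0.436 CPM.

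Sox9, the cartilage factor that astrocytes also carry, ran opposite to the other members. It was at 9.34, 9.12 and 10.1 CPM in SB2 and at 7.76, 7.73 and 11.2 CPM in BS6, and at 23.6, 17.9 and 26.5 CPM in SB4 and 26.4, 23.8 and 21.9 CPM in BS2. Every brain-like library lay above every bone-like library. Sox9 rose by 1.25 in SB4 (SE 0.15, adjusted p = 1.24e-05, edgeR) and fell by 1.40 in BS6 on the log2 scale (SE 0.19, adjusted p = 0.000575, edgeR). The summed level of the 8 astrocyte markers moved with it, at 5283 to 5568 CPM in SB4 and 5253 to 5746 CPM in BS2 against 761 to 872 CPM in SB2 and 492 to 730 CPM in BS6. Among these, Gja1 ran against the sum, with a mean of 701 CPM in SB2 and 151 CPM in SB4, and none of the 8 was at 0 in every library of a group. Different genes carried the sums. Gja1 was the largest part in SB2 and BS6 (mean 428 CPM in BS6). Slc1a2 was the largest part in SB4 and BS2, at means of 3978 and 4092 CPM against 20.6 CPM in SB2 and 33.6 CPM in BS6. Every marker other than Gja1 had its higher means in SB4 and BS2. The part of astrocytes in the Sox9 values was not tested.

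**Figure D2:**
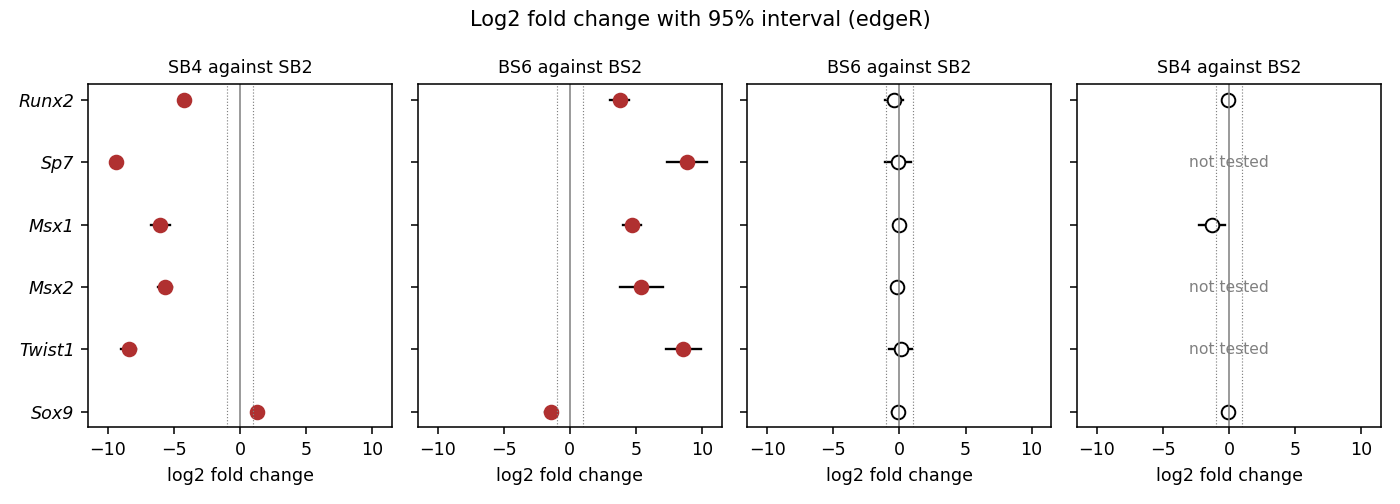
Log2 fold change of each member in 4 comparisons of 2 groups, with the 95% interval from edgeR as a horizontal line, filled circles for called genes and open circles for genes not called; dotted lines mark a log2 fold change of -1 and 1. The 6 members were called in opposite directions in SB4 against SB2 and BS6 against BS2, none was called in BS6 against SB2 or SB4 against BS2, and 3 were too low for a test in the last.

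The pairs of groups that resembled each other in bone and neuron markers were then compared, to see whether the members differed within each pair. SB2 and BS6 were both bone-like but not alike in makeup: erythroid markers (6 with counts) summed to 1245 to 4514 CPM in SB2 and 7562 to 12190 CPM in BS6, and the osteoblast and osteocyte markers given above did not overlap either in their sum, higher in SB2. Ibsp carried most of that sum, with a mean of 3215 CPM in SB2 and 873 CPM in BS6, followed by Alpl at 534 and 385 CPM and Dmp1 at 156 and 137 CPM, while Phex went the other way, at 31.0 and 63.8 CPM. Skeletal muscle markers (6 with counts) summed to 316 to 2574 CPM in SB2 (median 2038) and 83.2 to 612 CPM in BS6 (median 120). The part of this makeup in the member values was not tested. In BS6 against SB2, 0 of 6 members were called by edgeR or by DESeq2, and 0 had an unadjusted p under 0.05, with 1.86% of 16329 genes called, 1.11% higher and 0.741% lower. The groups overlapped for all 6 members, while they did not overlap for 38.1% of all genes. The log2 difference of Runx2 was -0.42, with a 95% interval from -1.08 to 0.24, which includes lower and higher levels in BS6 than in SB2. For Sp7 it was -0.15 (95% interval -1.13 to 0.84) and for Twist1 0.08 (-0.81 to 0.97), both wide because of the spread within BS6. The intervals were narrower for Msx1 at -0.07 (-0.44 to 0.30), for Msx2 at -0.15 (-0.51 to 0.20) and for Sox9 at -0.08 (-0.55 to 0.38). The adjusted p-values ran from 0.348 for Runx2 to 0.904 for Twist1 in edgeR, and they do not show that the levels were equal. BS6 replicate 2, with the neutrophil markers given above, held the lowest value of the group for all 6 members. Without it the log2 difference was 0.13 for Sp7, 0.07 for Msx1 and 0.40 for Twist1. Without BS6 replicate 3 the log2 difference was -0.78 for Sp7, -0.71 for Runx2 and -0.29 for Twist1. The part of the neutrophil and fibroblast markers of BS6 replicate 2 in the member values was not tested.

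In SB4 against BS2, 0 of the 3 members high enough for a test were called by edgeR or by DESeq2, with 0.147% of 16278 genes called, 0.086% higher and 0.0614% lower. The groups overlapped for all 6 members, while they did not overlap for 16.5% of all genes. Runx2 differed by -0.08 on the log2 scale (95% interval -0.30 to 0.15) and Sox9 by -0.11 (-0.39 to 0.18). Sp7, Msx2 and Twist1 were too low for the filter on counts. Msx1 was the 1 member with an unadjusted p under 0.05, at a log2 difference of -1.30 (95% interval -2.27 to -0.33, adjusted p = 0.239, edgeR). It was called without SB4 replicate 2, the library with the highest Msx1 of that group, at -2.30 (adjusted p = 0.0134, edgeR). Beside it, the 8 meningeal and fibroblast markers summed to 64.9, 70.6 and 75.5 CPM in SB4 and to 70.9, 89.8 and 91.4 CPM in BS2, and none was at 0 in every library of a group. Much of that sum was Pdgfra, at a mean of 45.3 CPM in SB4 and 46.5 CPM in BS2. Col15a1 had the lower mean in BS2, at 12.2 CPM in SB4 and 10.3 CPM in BS2. The other 6 markers had the higher mean in BS2, as Msx1 had, with 3.73 and 8.17 CPM for Dcn, 3.37 and 7.82 CPM for Aldh1a2, 2.39 and 4.75 CPM for Slc22a6, 1.64 and 2.88 CPM for Col3a1, 0.952 and 1.51 CPM for Lum and 0.791 and 2.06 CPM for Crabp2. The part of these markers in the Msx1 values was not tested.

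Some of the members were also present in the libraries with brain transcripts, those labelled as cortex (SB4) and those labelled as bone (BS2). With a threshold of 1 CPM in every library of a group, Runx2 and Sox9 passed in SB4, and Runx2, Msx1 and Sox9 passed in BS2. At 2 CPM, Runx2 and Sox9 passed in both groups. Sp7, Msx2 and Twist1 stayed below 0.65 CPM in each of these 6 libraries. To set the remaining levels beside those of bone genes in the same libraries, each mean was expressed as a percentage of the mean in the bone-like group of the same comparison. Runx2 stood at 5.34% in SB4 of its level in SB2 and at 7.53% in BS2 of its level in BS6. The osteoblast and osteocyte markers Ibsp, Dmp1, Phex and Alpl stood at 0.00416% to 3.48% (median 0.841%) and at 0.0202% to 1.45% (median 1.18%). The percentage of Runx2 was thus above that of each of these 4 markers in both comparisons. Those of Sp7, at 0.148% and 0.211%, and of Twist1, at 0.275% and 0.259%, were below the medians of the markers. Msx1 stood at 1.44% in SB4, within the range of the markers, and at 3.90% in BS2, above it. Its value in SB4 was 0.719% without SB4 replicate 2, then below the median of the markers. Msx2 stood at 1.89% in SB4, within the range, and at 2.46% in BS2, from 12 counts over 3 libraries. Without BS2 replicate 3 that value was 1.13%, within the range of the markers, whose highest was then 1.41%. Sp7 in BS2 was at 0.327% without BS6 replicate 3. Sox9 stood at 238% and 270%. These percentages are descriptions of means of 3 libraries, and whether any of the remaining counts came from bone RNA was not tested.

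**Figure D3:**
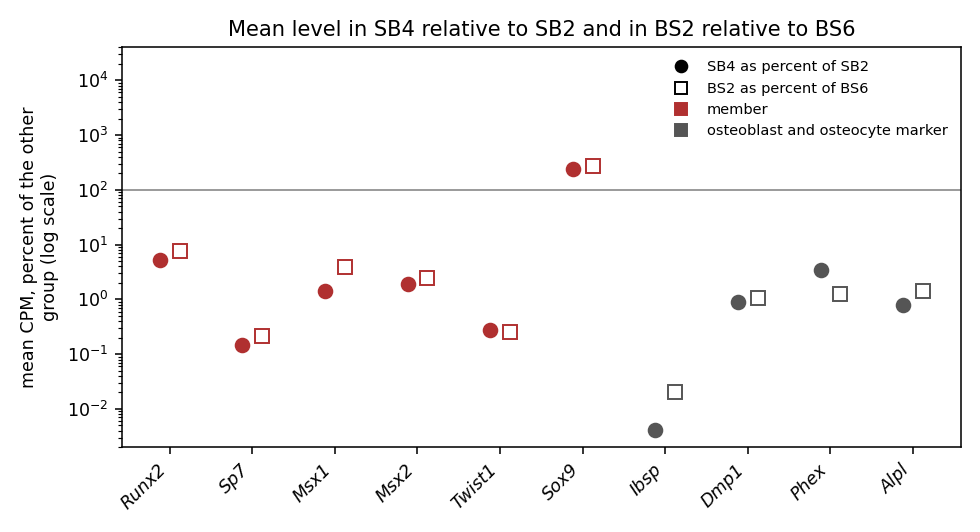
Mean CPM in SB4 as a percentage of SB2 (filled circles) and in BS2 as a percentage of BS6 (open squares), on a log axis with a line at 100, for the 6 members in red and 4 osteoblast and osteocyte markers in gray. Runx2, at 5.34% and 7.53%, lay above the 4 markers, Sp7 and Twist1 lay below 0.3%, and Sox9 lay above 100%.

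Levels were compared between genes only after division by exon length, as CPM per kilobase. In SB2 the order was Sp7 (84.0), Twist1 (63.9), Runx2 (29.3), Msx1 (16.4), Msx2 (3.88) and Sox9 (2.31 CPM per kilobase), and no 2 neighbours overlapped across the 3 libraries. BS6 had the same order of means, at 75.2, 67.0, 21.8, 15.5, 3.46 and 2.15 CPM per kilobase, but the ranges of Sp7 and Twist1 overlapped there, as did those of Runx2 and Msx1. In SB4 the order was Sox9 (5.48), Runx2 (1.57), Msx1 (0.237), Twist1 (0.175), Sp7 (0.124) and Msx2 (0.0735 CPM per kilobase), where Twist1 overlapped with Msx1 and with Sp7. BS2 had that same order, from 5.81 CPM per kilobase for Sox9 and 1.64 for Runx2 down to 0.0851 for Msx2, and the neighbours Twist1 and Sp7, and Sp7 and Msx2, overlapped. Sox9 was thus the lowest member in the bone-like groups and the highest in the brain-like groups.

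Ratios of members within a library do not depend on the scaling between libraries. The Sp7 to Runx2 ratio of counts was 1.29, 0.958 and 1.08 in SB2 and 0.956, 1.19 and 1.67 in BS6, and these ranges overlapped. The Msx2 to Msx1 ratio was 0.276, 0.261 and 0.221 in SB2 and 0.227, 0.254 and 0.236 in BS6, again with overlap. The Twist1 to Runx2 ratio was 0.355, 0.435 and 0.407 in SB2 and 0.583, 0.459 and 0.606 in BS6, higher in each BS6 library than in any SB2 library. The differences in the mean log2 ratio were 0.17, -0.08 and 0.46, with two-sided exact permutation p-values of 0.7, 0.6 and 0.1, where 0.1 is the smallest p that 3 against 3 libraries allow. Adjusted over the 3 ratios, the exact permutation p of the Twist1 to Runx2 ratio was 0.3.

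The genes around the members in their pathways were read from 4 lists. Of the partners and relatives of the members, 24 of 28 were tested in SB4 against SB2, where 7 were called higher, 12 lower and 5 were not called, with a median log2 fold change of -0.95 against -0.01 over all genes, of which 27.8% were called higher and 28.6% lower. In BS6 against BS2, 10 were called higher, 6 lower and 8 were not called, with a median of 0.71 against 0.02 over all genes, of which 29% were called higher and 26.5% lower. Cbfb, the binding partner that RUNX2 needs on DNA, was at a mean of 203 CPM in SB2, 29.8 in SB4, 27.5 in BS2 and 147 in BS6, and it fell by 2.77 and rose by 2.45 on the log2 scale. Runx3 followed Runx2 with 32.8 and 29.98 CPM in SB2 and BS6 and under 0.1 CPM in SB4 and BS2. Tcf12, which pairs with TWIST1, fell by 1.26 in SB4. In BS6 against BS2 it missed only the cut-off on the fold change, at 0.81 (adjusted p = 0.00555, edgeR).

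Some relatives ran the other way. Dlx1, a gene of cortical interneurons from the family of Dlx5, was at 35.2 CPM in SB4 and 35.9 CPM in BS2 but at 0.316 CPM in SB2 and 0.124 CPM in BS6. Dlx3, its bone and skin relative, was at 35.2 CPM in SB2 and 32.3 CPM in BS6 and below 0.1 CPM in the other groups. Sox5 rose by 2.73 in SB4 and fell by 2.61 in BS6, and Sox8 rose by 4.54 and fell by 3.42, the same directions as Sox9, while Sox6, which acts beside SOX9 in cartilage, was not called in either, at -0.23 and -0.23.

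Of the transcription factors of cranial mesenchyme and sutures, 18 of 20 tested genes were called lower in SB4 and 18 of 21 were called higher in BS6, with none in the other direction, beside 28.6% and 29% of all genes. The median log2 fold change was -5.17 and 4.45, against -0.01 and 0.02 over all genes. Six2, a progenitor factor, was at 46.4 CPM in SB2 and 44.6 CPM in BS6 against 0.133 CPM in SB4 and 0.682 CPM in BS2. Snai1, a factor of mesenchymal cells, was at 63.2 and 47.4 CPM against 0.217 and 0.374 CPM, in the same order of groups. Lef1 and Zeb1 were not called, with log2 values of 0.76 and -0.41 in SB4 and -0.14 and 0.22 in BS6. In SB4 their adjusted p-values were 0.0226 and 9.46e-05 (edgeR), so there they missed only the cut-off on the fold change. Tfap2b, named to complete the count, was the other gene not called in BS6, at 0.40 (adjusted p = 0.775, edgeR).

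Of the bone genes known as targets of RUNX2 and SP7, 12 of 13 tested were called lower in SB4 and 12 of 13 higher in BS6, beside 28.6% and 29% of all genes. The medians were -6.90 and 7.0, against -0.01 and 0.02 over all genes. Ibsp, a protein of the mineralizing matrix, was at 3215 CPM in SB2, 873 CPM in BS6 and below 0.2 CPM in SB4 and BS2. Mmp13, the collagenase that late osteoblasts make, was at 4587 and 1723 CPM against about 0.02 CPM. Col1a1, the main collagen of bone, was at 34660 and 49570 CPM against 3.19 CPM in SB4 and 7.32 CPM in BS2. Enpp1, which makes pyrophosphate, fell by 5.33 in SB4 and rose by 4.43 in BS6.

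Of the cartilage targets of SOX9, 8 of 12 tested were called lower in SB4, and 8 of 11 were called higher in BS6, beside 28.6% and 29% of all genes. The medians were -2.77 and 3.16, against -0.01 and 0.02 over all genes, the opposite direction to Sox9 itself. Comp was at 42.0 and 56.9 CPM in SB2 and BS6 against 0.236 and 0.196 CPM in SB4 and BS2, and Col11a1 fell by 5.20 and rose by 6.36. Col9a2, Col9a3 and Hapln1 were not called, with log2 values of 0.86, 0.78 and -0.88 in SB4 and 0.35, -0.21 and -1.03 in BS6. In SB4 their adjusted p-values were 0.00736, 0.0035 and 3.36e-05 (edgeR), so there they missed only the cut-off on the fold change. Matn3, named to complete the count, was the other gene not called in SB4, at 0.40 (adjusted p = 0.402, edgeR). Matn1, a marker of cartilage, was below 0.3 CPM in the mean of every group.

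Within the bone-like pair and the brain-like pair of groups, edgeR called few genes of the lists. Of all genes, edgeR called 1.86% in BS6 against SB2 (303 genes) and 0.147% in SB4 against BS2 (24 genes). DESeq2 called 1072 and 46 of all genes in these comparisons. In BS6 against SB2 edgeR called 0 of 23 partners, 0 of 21 mesenchymal factors and 0 of 13 bone targets, where 4, 1 and 5 had an unadjusted p under 0.05 and DESeq2 called 0, 0 and 5. Among the 11 cartilage targets, 6 had an unadjusted p under 0.05, DESeq2 called 5 and edgeR called 1, Col2a1, at 7.67 CPM in SB2 and 34.0 CPM in BS6 (log2 2.16, adjusted p = 0.0327, edgeR), and this gene is named because it was the only call of edgeR. No cartilage target was called without any one of the 3 SB2 libraries or without BS6 replicate 1 or 3, and 6 were called without BS6 replicate 2. In SB4 against BS2 edgeR called 0 of 21, 0 of 14, 0 of 10 and 0 of 9, where 2, 3, 1 and 1 had an unadjusted p under 0.05 and DESeq2 called 0, 0, 1 and 0. The share of all genes with an unadjusted p under 0.05, and the share that DESeq2 called, are not given here. The counts by these 2 measures therefore set no list apart from the background.

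**Figure D4:**
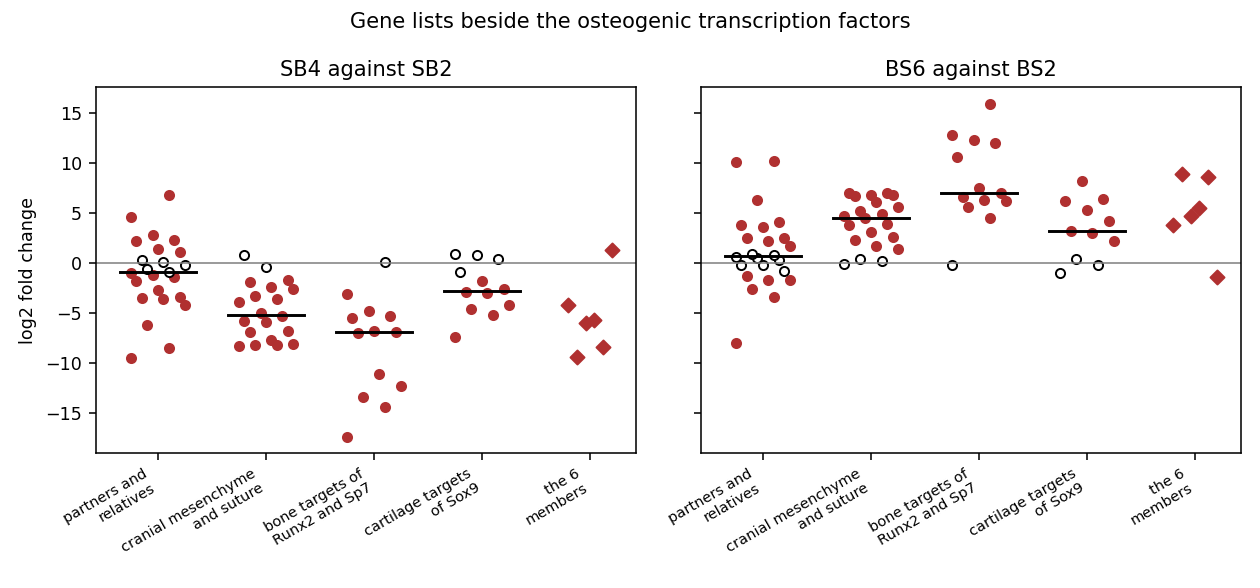
Log2 fold change of the tested genes of 4 lists and of the 6 members in SB4 against SB2 (left) and BS6 against BS2 (right), with filled symbols for called genes, open circles for genes not called and a black line at the median of each list. The lists of cranial mesenchyme factors and bone targets lay with Runx2, Sp7, Msx1, Msx2 and Twist1, at medians of -5.17 and -6.90 in SB4, and the partners and relatives were split between directions.

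The genes whose profile over the 12 libraries was most like each member were found by the root mean square difference of log2(CPM + 1), each gene centred on its own mean, among 11869 genes. This measure compares the pattern of log2(CPM + 1) over the libraries and not the level. It reflects mostly the step between bone-like and brain-like libraries and says nothing of shared control. Adding 1 narrows the step of genes with low CPM, so genes named as alike can differ in fold. From SB2 to SB4, for example, the mean of Msx2 went from 12.7 to 0.241 CPM and that of Fmnl3 from 145 to 13.4 CPM. For Runx2 these were Shisa2 (0.126) and Apol6 (0.133), and for Sp7 the water channel gene Aqp1 (0.315) and the osteoclast protease gene Ctsk (0.387). For Msx1 they were Gstm2 (0.159) and Mdfic (0.253), and for Msx2 Fmnl3 (0.133) and Adgra2 (0.143). For Twist1 they were Loxl1 (0.169), which cross-links matrix, and Mmp23 (0.238). Sox9 was closest to Mgll (0.128), the lipase gene at 93.3, 205, 197 and 88.1 CPM in SB2, SB4, BS2 and BS6, and to Eid2 (0.133). With a pseudocount of 0.5 in place of 1, 7 of these 12 names remained.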

How the data were processed

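Poly(A) RNA of 12 mouse libraries (3 in each of 4 groups) was sequenced from both ends with a library kit whose counting by strand is not given in the sources used here. The authors cleaned the reads with fastp, aligned them to mm10 with HISAT2 2.1.0 and deposited raw counts per gene symbol, as whole numbers. The counting program and annotation are not given in the sources used here, nor whether the counts precede the batch correction of the study, so genes that overlap or lie antisense are uncertain. Of 22317 symbols, 22022 were found in GENCODE M21, which gave positions and exon lengths. Groups were taken from the sample titles, and table columns were matched by name.

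Pairs of groups were fitted in R 4.3.3 with the robust quasi-likelihood test of edgeR 4.0.16, after TMM scaling and a filter of low genes (filterByExpr, minimum count 10), and p-values were adjusted over all genes tested (Benjamini-Hochberg). A contrast over the 12 libraries tested whether both changes over days differed. Each level is a CPM value with TMM factors over the 12 libraries. Ratios were tested with an exact permutation test (scipy 1.17.1), where the planned ratio of Dlx5 was not made. The scripts were tested on simulated data. Alternatives were DESeq2 1.42.0, other scalings, filters, designs and leaving out each library. The members, gene lists and tests were chosen with earlier results of these data known. Named genes were the members, for each the 2 genes of most similar profile, the 2 largest and 2 smallest changes of each list, and Cbfb, Dlx6, Twist2, Tcf12, Sox5 and Sox6, of which Dlx6 was not analysed here; the results of 1 further gene are not reported here. Promoters came from a RefSeq table (GRCm38.p6), without entries used for Sp7 and Sox9. A planned comparison of proteins was not made. Intervals of single levels cover counting error only, since counts are of reads without molecular identifiers.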

Additional observations from a re-analysis of the deposited data

Results flagged for a closer look

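The change over days differed between the libraries labelled as skull and those labelled as brain for all 6 members, in a contrast of (BS6 minus BS2) minus (SB4 minus SB2) over the 12 libraries, which edgeR called for 73.6% of 18068 genes. The difference on the log2 scale was 8.0 for Runx2, 18.3 for Sp7, 10.77 for Msx1, 11.13 for Msx2 and 17.02 for Twist1. For Sox9 it was -2.64, so that Sox9 was the member with the opposite sign. For Sp7, Msx2 and Twist1, which passed the filter of low genes only through SB2 or BS6, no call in the other direction was possible. All these differences were kept in sign and called under each of the 17 alternatives run, none of which asked for at least 10 counts in every library. They rest on the libraries labelled SB2 and BS2, whose markers go against their labels, and the part of the labels in them cannot be told apart from a change over days.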

How the results depend on the processing

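In SB4 against SB2 all 86 alternative values of the members, and in BS6 against BS2 all 87, kept their direction and their call. Asking for at least 10 counts in every library left 2 and 3 members to be called in those comparisons and 10 mesenchymal factors in each, since fewer genes were tested. Replicate numbers did not pair the libraries, as the deviations of same-numbered libraries correlated at -0.09 to 0.06 over 12 pairs of libraries.

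Within the bone-like and the brain-like pair, counts of called genes moved. In BS6 against SB2 (303 genes) they were 1072 with DESeq2, 1273 with all 12 libraries in the fit, 0 with the replicate block, 932 with the adjusted p alone, and 0 to 667 without any one library, 0 without each of the SB2 libraries and 667 without BS6 replicate 2. In SB4 against BS2 (24 genes) they were 46 with DESeq2, 50 with no filter, 8 with all 12 libraries, 61 with the replicate block, 153 with the adjusted p alone, and 18 to 85 without any one library (85 without SB4 replicate 3). Bone targets called in BS6 against SB2 became 5 with DESeq2 and with all 12 libraries, 1 with total counts only and 0 to 5 without any one library (5 without BS6 replicate 2). In SB4 against BS2 they became 1 with DESeq2, 2 with the replicate block and 0 to 1 without any one library. The cartilage call became 5 with DESeq2 and with all 12 libraries, 0 with the replicate block and 0 to 6 without any one library. Mesenchymal calls became 0 to 1 in BS6 against SB2, and 1 with the replicate block and 0 to 3 in SB4 against BS2. Members called in SB4 against BS2 were 0 to 1 without any one library.

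In BS6 against SB2, 9 of 90 member values, none called, changed sign. Leaving out any one library gave -0.78 to 0.13 for Sp7 (0.045 without BS6 replicate 1), -0.16 to 0.071 for Msx1, -0.29 to 0.40 for Twist1 (-0.066 without SB2 replicate 1) and -0.28 to 0.010 for Sox9. Twist1 was at -0.00093 with total counts only and at -0.015 with the replicate block. Sox9 in SB4 against BS2 was at -0.24 to 0.052, and the log2 ratio of Sp7 to Runx2 at -0.043 to 0.36. The cause was not tested. The alternatives for lists, and the ratios and percentages without a library, were chosen after seeing the data. Matches in the Runx2 promoter were 5 in 300 bases and 2 before the start.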
